A study of Mus musculus with 6 samples.

Results

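The cytosolic ribosomal protein genes encode the proteins of the small (40S) and large (60S) subunits of the ribosome that translates nuclear mRNA. They were taken from the table by name: an entry was a member when its symbol was *Rpl* or *Rps* followed by a number and at most one of the letters a, l or x, or was *Rplp0*, *Rplp1*, *Rplp2* or *Rpsa*. The rule found 79 members among 37753 entries with values, and 76 of them had a mean of at least 1 FPKM (fragments per kilobase of transcript, scaled to the mapped fragments of the library) and were tested. Of the tested members, 31 belong to the small subunit, 42 to the large subunit and 3 to the P-stalk, the flexible arm of the large subunit that recruits elongation factors. Every tested member was far above that level in all 6 libraries, so none passed through 1 group alone. The 3 members that were not tested are *Rpl3l*, *Rpl10l* and *Rpl39l*, paralogs known for expression in muscle or testis. *Rpl13* and *Rps4l* were not analysed here.

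RNA-seq was made from 3 preparations of mammary epithelial cells (MEC) and from 3 mammary tumor cell lines (MEKO), all labelled strain C57/Bl6J. MEC carried the *Wap-Cre* transgene alone (genotype WAPCre+). They came from virgin females of 10 to 12 weeks, with 3 to 5 animals in a preparation, and were harvested as near-confluent primary cultures on collagen I in medium with EGF, insulin and fetal calf serum. The MEKO lines 199, 233 and 336 (genotype Mapk8KO Mapk9KO Cre+) are deleted for both genes of the ubiquitous JNK kinases. They grew out of tumors of parous mice, and the cells were moved to uncoated dishes after 2 passages on collagen I. *Wap-Cre* acts in luminal cells during pregnancy and lactation, and each line stands for 1 tumor and 1 library. Loss of JNK, tumor origin, parity, age and time in culture cannot be told apart in this comparison.

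Ribosomal proteins are needed in equal numbers, since a ribosome holds a single copy of nearly every one of them, and the P-stalk holds *Rplp1* and *Rplp2* as pairs on a *Rplp0* base. Their mRNAs are short, abundant and among the most stable in the cell. They begin with a C followed by a run of pyrimidines, the 5′ terminal oligopyrimidine (TOP) tract, through which mTORC1 and LARP1 control their translation together. Several members also act outside the ribosome: *Rpl5* and *Rpl11* form a complex with 5S rRNA that binds MDM2 and stabilises p53, and *Rpl22* restrains the expression of its own paralog *Rpl22l1*.

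Sequence features near the start of transcription were found in part of the members more often than in other genes. RefSeq start sites (GRCm38.p6) were found for 59 of the 79 members, 56 of them tested. A run of at least 10 pyrimidines that begins with C, on the transcript strand and from 30 bases before to 50 after the annotated start, was found in 32 of these 56 (57.1%), against 11.1% of all 27025 gene starts in the table. The motif CCGGAAG, the core bound by ETS factors such as GABP, was found on either strand from 250 bases before to 50 after the start in 23 of 56 (41.1%), against 9.21% of all. The palindromic E-box CACGTG, a site of MYC and USF proteins, was in 5 of 56 (8.93%), against 7.23% of all, so its share was close to that of other genes. Below are 30 bases that hold the longest pyrimidine run beginning with C, of any length, for 7 of the members to which the results return. The run is in capitals, 5′ to 3′ on the transcript strand, and in *Rpl22* and *Rps27l* it lies before the annotated start. They are shown so that the run can be compared between members that stood apart and members that did not.
*Rplp0*, chr5:115559467-115559496 (+): ggaccgcctggttCTCCTataaaaggcaca
*Rpl22*, chr4:152325697-152325726 (+): tcccgacagccgaCTTCgccctgggaaaag
*Rpl11*, chr4:136053357-136053386 (−): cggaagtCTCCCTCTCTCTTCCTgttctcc
*Rpl26*, chr11:68901580-68901609 (+): cgtgtagttCTCTTTCCTTTTgcggccatc
*Rps12*, chr10:23787182-23787211 (−): ccaccgccggCCTTTTCCCCTgccgccgcc
*Rps27*, chr3:90213632-90213661 (−): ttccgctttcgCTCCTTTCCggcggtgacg
*Rps27l*, chr9:66946053-66946082 (+): ccccgcctccaCTCCTCTCCactcctcccc
The run was 16 bases long in *Rpl11*, 12 in *Rpl26*, 11 in *Rps12* and 9 in *Rps27* and *Rps27l*. It was 5 in *Rplp0* and 4 in *Rpl22*, the members with the largest increase and the largest decrease. It was also 5 in *Rps3*, 14 in *Rpl39* and 10 in *Rps21*, whose bases are not printed and which were not called. A short run was thus not particular to the called members. A match is a description of these letters at an annotated start, and a start annotated some bases away from the one used in these cells would move or hide it.

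The library labels were first checked against the targeted genes. *Mapk8* and *Mapk9* together summed to between 41.3 and 47.6 FPKM in MEC and to between 4.44 and 13.6 in the MEKO lines, and both were called lower. The summed level of 8 epithelial markers was between 6026 and 10138 FPKM in MEC and between 1335 and 2313 in the lines, and 4 of the 8 were called lower. *Epcam*, *Cdh1*, *Krt8*, *Krt18* and *Krt19* were lower in every line than in any MEC library. In line 199, *Krt5* at 608 FPKM and *Krt14* at 521 were above every MEC library, and *Krt17* lay within the MEC range. *Krt5*, *Krt14* and *Krt17* were each at most 24.0 in lines 233 and 336. Leukocyte markers summed to between 24.4 and 45.4 FPKM in MEC and to at most 0.946 in the lines. Of the 4 that were tested, 3 were called lower. *Lyz2* made up most of the sum in MEC, between 16.5 and 32.9 FPKM, and was at most 0.0182 in the lines. *Ptprc*, which defines leukocytes, was under 0.5 in every library. Of 7 fibroblast markers, 1 was called lower, and their sum was 1092 in line 199, between 115 and 196 in MEC, and at most 2.41 in lines 233 and 336. The sum in line 199 was mostly *Col1a1* at 600 FPKM and *Col1a2* at 408. These 2 genes, *Col3a1* and *Pdgfra* were above every MEC library in that line. *Dcn*, *Lum* and *Thy1* were below every MEC library there. Endothelial and adipocyte markers each summed to at most 13.9 in any library. In bulk RNA, fewer cells of a type and less RNA per cell cannot be told apart, and the part of these differences in the results below was not tested.

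Ribosomal protein mRNAs held nearly the same level in the tumor lines as in MEC. The median member was higher in the lines by 0.08 on the log2(FPKM + 1) scale, against 0.01 for all 12461 tested genes. It was −0.00 without MEC 3, −0.04 with sample weights and 0.15 without MEC 1, so its sign is not fixed by these libraries. The differences ranged from −0.89 for *Rpl22* to 0.77 for *Rplp0*, with 47 members above 0 and 29 below. A difference of less than 0.25 in either direction was seen in 60 of 76 members (78.9%), against 36.2% of all tested genes and 27.5% of the 109 other genes expressed at least as highly as the lowest tested member. The 95% confidence interval of the fold change lay within ±0.75 in 62 members (81.6%), against 30.5% of all tested genes and 21.1% of those 109. For these 62 members, a difference beyond the threshold for a call was therefore outside the interval. The standard error was also smaller in the members, with a median of 0.15 against 0.24 for all tested genes.

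**Figure D1:**
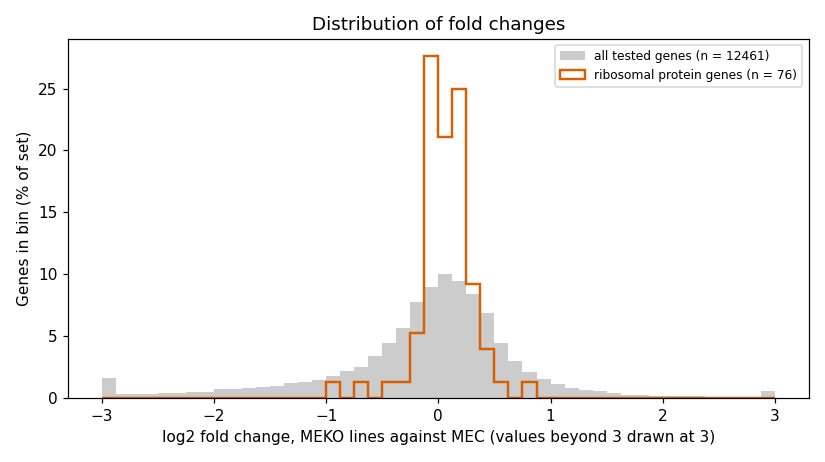
Distribution of the log2 fold change, MEKO lines against MEC, in equal bins, as the percentage of each set, for all 12461 tested genes (gray) and the 76 tested ribosomal protein genes (orange outline). The members crowd around 0, between −0.89 and 0.77, while other genes spread beyond 3 in both directions.

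A gene was called when its adjusted p (limma, Benjamini-Hochberg over all 12461 genes) was under 0.05 and its log2 fold change was beyond 0.75. *Rplp0* was called higher, 1 of 76 members, where 2.64% of all tested genes were called higher. *Rpl22* was called lower, 1 of 76, where 7.26% of all were called lower. In either direction, 2 of 76 members were called against 9.9% of all genes. *Rpl11* passed the adjusted p with a fold change just short of the threshold, which made 3 members, against 10.5% of all genes by the adjusted p alone. An unadjusted p under 0.05 was found for 8 members, against 28.2% of all. Leaving out 1 library at a time gave 0 or 1 member called higher and between 0 and 2 called lower.

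**Figure D2:**
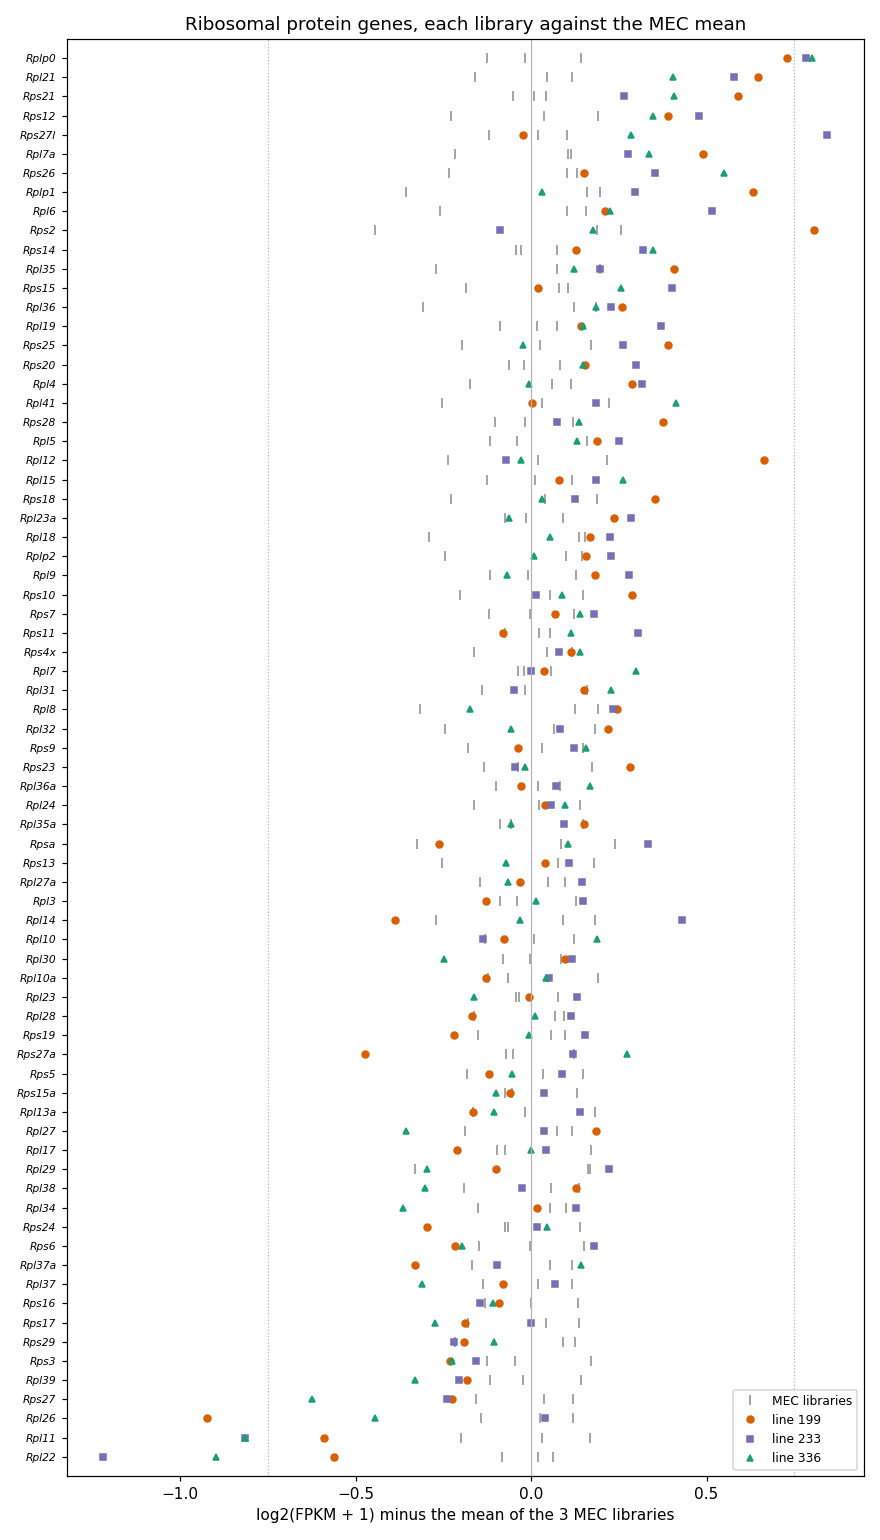
Tested ribosomal protein genes in each library, without a few members that are not reported here, as log2(FPKM + 1) minus the mean of the 3 MEC libraries, ordered by fold change. Gray ticks are MEC libraries, coloured symbols are lines 199, 233 and 336, and dotted lines mark ±0.75. Most symbols lie among or near the ticks, and *Rplp0* at the top and *Rpl11* and *Rpl22* at the bottom have all 3 lines on one side.

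The median log2 fold change was 0.08 for the 31 tested members of the small subunit, with none called, and 0.06 for the 42 of the large subunit, with *Rpl22* called lower. The 3 genes of the P-stalk had a median of 0.32, with *Rplp0* called higher. The summed FPKM of small-subunit genes over that of large-subunit genes was 0.777 ± 0.0116 in MEC and 0.780 ± 0.0220 in the lines (SD, n = 3; exact permutation test, two-sided, p = 0.8).

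Ribosomal protein mRNA took a share of all FPKM that was higher in each MEKO line than in any MEC library. The share was 12.4%, 12.9% and 11.0% in MEC 1, 2 and 3, and 13.9%, 13.9% and 13.4% in lines 199, 233 and 336. The groups did not overlap, and the means were 12.1% ± 0.986 and 13.7% ± 0.264 (SD, n = 3), a difference of 1.64 percentage points with an exact two-sided permutation p of 0.1, the smallest that 3 against 3 can give. The share was also taken of other totals. The mitochondrial tRNA entry *mt-Ts1* alone held 10.3%, 6.22% and 13.4% of FPKM in MEC 1, 2 and 3. It held 7.43%, 11.3% and 6.49% in lines 199, 233 and 336 (exact permutation p = 0.7). Without the 20 largest entries that are not members, the share was 16.8%, 15.5% and 14.3% in MEC and 16.9%, 17.9% and 16.1% in the lines. The groups then overlapped, with a difference of 1.44 percentage points (exact permutation p = 0.2). Over protein-coding entries the difference was 1.42 percentage points, again with overlap (exact permutation p = 0.2).

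**Figure D3:**
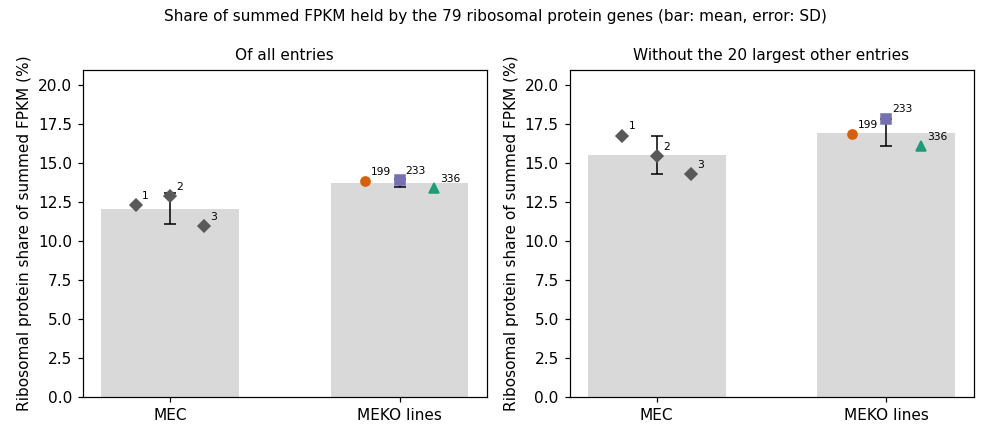
Share of summed FPKM (%) held by the 79 ribosomal protein genes in each library, of all entries (left) and without the 20 largest other entries (right). Bars and errors are means and SD, symbols are libraries. On the left the lines sit between 13.4% and 13.9%, above the MEC libraries at 11.0% to 12.9%, and on the right MEC 1 at 16.8% lies among the lines.

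The sum of member FPKM itself did not separate the groups. It was 78855, 73171 and 63942 in MEC 1, 2 and 3 and 77283, 79828 and 75066 in lines 199, 233 and 336 (exact permutation p = 0.3). MEC 1 lay between the lines, and MEC 3 was the lowest of all. The median member, on the log2(FPKM + 1) scale, was at 9.94, 9.80 and 9.60 in MEC and at 9.88, 9.90 and 9.75 in the lines (exact permutation p = 0.7).

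MEC 3 had the lowest of the 3 MEC values in 70 of 76 members, where it was lowest in 39.3% of all tested genes, and it was the lowest of all 6 libraries in 45 members. The summed level of 7 proliferation genes was also lowest there, at 226 FPKM against 495 and 523 in MEC 1 and MEC 2 and between 591 and 886 in the lines, and its part in the member levels was not tested. Once each library was set relative to its own median member, the median SD of a member over the libraries of a group was 0.0647 in MEC and 0.148 in the lines on the log2 scale. On the values as deposited these SDs were 0.149 and 0.153, against 0.184 and 0.326 for all tested genes. The proportions of the members to each other thus varied less over the MEC preparations than over the lines, a description of these 6 libraries with no test.

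Each line was also set against the range of the MEC libraries. In line 199, 31 members were above the highest MEC value and 19 below the lowest, where 40.2% and 39.1% of all tested genes were. Line 233 had 37 members above and 8 below, against 37.4% and 37.9% of all genes. Line 336 had 26 above and 15 below, against 39.2% and 37.4%. Without MEC 3, 35, 18 and 38 of 76 members were below the range in lines 199, 233 and 336, against 43.4%, 43.4% and 43.0% of all tested genes. Without MEC 1 there were 58 members (76.3%) above it in line 233, against 39.3% of all. A difference of more than 0.5 from the MEC mean was seen in 9, 7 and 6 members in the 3 lines, against 46.3%, 41.5% and 44.5% of all genes. All 3 lines were above all MEC libraries in 10 members, against 18.5% of all genes, and below them in 5, against 18.7%.

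Among the P-stalk genes, *Rplp0* was 1826, 1633 and 1517 FPKM in MEC 1, 2 and 3, and 2740, 2848 and 2880 in lines 199, 233 and 336. All lines lay above all MEC preparations and close to each other. The means were 1659 ± 156 and 2823 ± 73.1 (SD, n = 3), 1.70 times as high in the lines, and the log2 fold change was 0.77 with an SE of 0.13 and an adjusted p of 0.0202 by limma. The adjusted p was 0.0375 without line 199 and between 0.0636 and 0.114 when any of the other 5 libraries was left out, with fold changes between 0.71 and 0.84, so the call was lost without any 1 of those 5 libraries. With libraries scaled to the median member the fold change was 0.71, under the threshold, with an adjusted p of 0.0191.

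The partners of *Rplp0* in the stalk showed smaller differences that did not pass the test. *Rplp1* was 1878, 1830 and 1278 FPKM in MEC and 2539, 2011 and 1674 in lines 199, 233 and 336 (log2 fold change 0.32, limma adjusted p = 0.403), and line 336 lay within the MEC range. *Rplp2* was 1042, 1075 and 820 FPKM in MEC and 1082, 1138 and 978 in the lines (0.13, adjusted p = 0.623), again with overlap. The *Rplp0* level over the mean level of *Rplp1* and *Rplp2*, per length, was 1.25, 1.12 and 1.45 in MEC and 1.51, 1.81 and 2.17 in the lines. *Rplp0* sits on chromosome 5 (115559467 to 115563727, plus strand, GRCm38), and it is widely used as a reference transcript in quantitative PCR.

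In the 5S complex, *Rpl11* stood lower in the lines and its partner *Rpl5* did not. *Rpl11* was 873, 794 and 675 FPKM in MEC and 516, 441 and 441 in lines 199, 233 and 336, so that every line was below every preparation. The means were 781 ± 99.5 and 466 ± 43.1 (SD, n = 3), with a log2 fold change of −0.74, an SE of 0.15 and a limma adjusted p of 0.0336. The fold change did not reach 0.75, and it did so when MEC 3 (−0.84, adjusted p = 0.0483) or line 199 (−0.81, adjusted p = 0.0293) was left out, while the adjusted p was between 0.0812 and 0.144 without any of the other 4 libraries. Scaled to the median member, *Rpl11* was called lower as well (−0.80, adjusted p = 0.0166), and *Rpl22* with it, which made 2 of 76 members against 8.84% of all genes under that scaling. By the adjusted p alone, 3 members passed there, *Rplp0* with them, against 8.92% of all genes. *Rpl5* was 761, 663 and 628 FPKM in MEC and 776, 811 and 746 in the lines (0.19, adjusted p = 0.399), with overlap. As a ratio, *Rpl11* mRNA was 115%, 120% and 108% of *Rpl5* in MEC and 66.5%, 54.4% and 59.1% in the lines.

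The mRNAs of factors that bring the 5S complex into the pre-60S particle were also measured. *Rpf2*, which with *Rrs1* anchors the 5S complex, was 28.4, 30.2 and 25.6 FPKM in MEC and 54.1, 54.6 and 45.7 in lines 199, 233 and 336 (0.85, limma adjusted p = 0.0195). *Rrs1* was 37.6, 43.6 and 31.0 in MEC and 65.1, 63.6 and 62.1 in the lines (0.76, adjusted p = 0.0351). In both genes all lines were above all preparations, and both were called higher. *Heatr3*, the importer of RPL5, was 14.5, 16.5 and 11.3 in MEC and 30.7, 20.8 and 23.3 in the lines (0.78, adjusted p = 0.0705). Its lines were also all above all preparations, but it was not called. The adjusted p of *Rpf2* was 0.0949, 0.0732 and 0.0641 without MEC 1, 2 and 3. That of *Rrs1* was between 0.0675 and 0.139 without any library but line 199, and without line 199 it was 0.0451 with a fold change of 0.75 that fell just short.

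**Figure D4:**
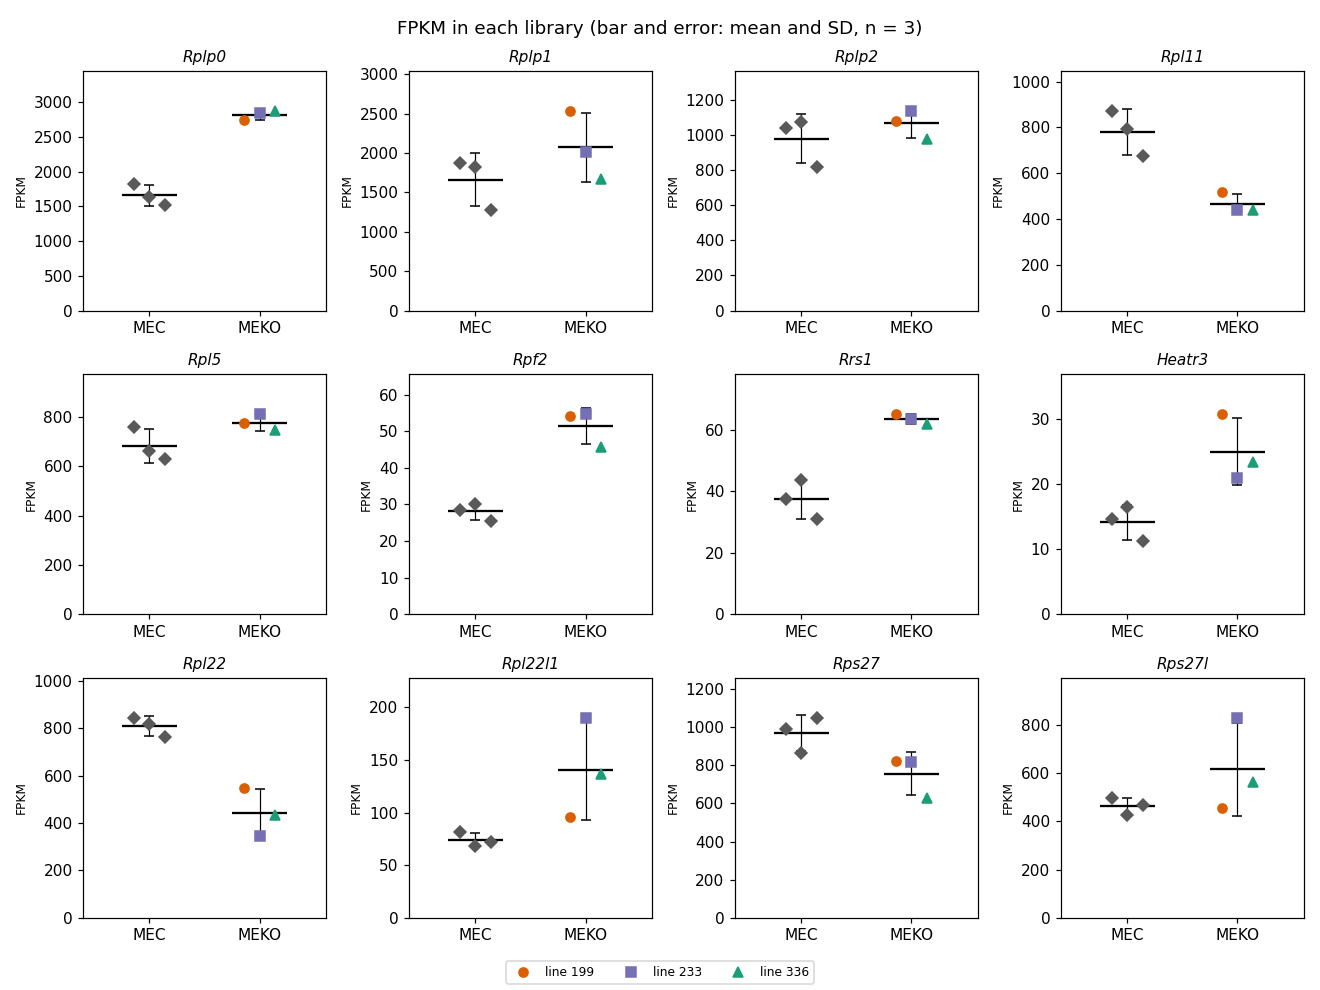
FPKM of 12 genes in each library, with lines 199, 233 and 336 marked by symbol and the mean and SD (n = 3) as bar and error. From left to right and top to bottom are the P-stalk genes and *Rpl11*, then *Rpl5* with *Rpf2*, *Rrs1* and *Heatr3*, then *Rpl22* and *Rps27* with their paralogs. *Rplp0*, *Rpf2*, *Rrs1*, *Heatr3* and *Rpl22l1* are higher in every line than in any MEC library, and *Rpl11*, *Rpl22* and *Rps27* are lower.

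*Rpl22*, which encodes a protein at the surface of the large subunit, was 844, 819 and 763 FPKM in MEC and 548, 347 and 433 in lines 199, 233 and 336. The groups did not overlap, and line 233 was the lowest. The means were 809 ± 41.5 and 443 ± 101 (SD, n = 3), 0.547 times as high in the lines, and the log2 fold change was −0.89 with an SE of 0.19 and a limma adjusted p of 0.0365. Without line 199 it was −1.06 (adjusted p = 0.0136), and without any of the other 5 libraries the adjusted p was between 0.0679 and 0.147, so that this call too was lost without any 1 of them. By quantile normalization the fold change was −0.75 with an adjusted p of 0.0513.

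Its paralog *Rpl22l1*, which the name rule does not take in and which can replace it in the ribosome, was 81.2, 67.8 and 72.0 FPKM in MEC and 95.7, 190 and 136 in the lines. Every line was above every preparation, with line 233 highest and line 199 lowest, but the difference did not pass the test (0.87, limma adjusted p = 0.0867). *Rpl22l1* mRNA was 9.62%, 8.27% and 9.43% of *Rpl22* mRNA in MEC, and 17.5%, 54.8% and 31.4% in lines 199, 233 and 336. The lines followed the same order in both genes, in opposite directions: *Rpl22* was lowest and *Rpl22l1* highest in line 233. The coding sequences of the pair were 66.9% identical.

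*Rps27* and *Rps27l* are a pair of paralogs in the small subunit, and neither was called. *Rps27* was 990, 866 and 1049 FPKM in MEC and 825, 818 and 626 in lines 199, 233 and 336 (−0.36, limma adjusted p = 0.216). All lines were below all preparations, though MEC 2 and line 199 lay close. *Rps27l*, a p53 target that encodes an interchangeable form of the protein, was 496, 425 and 468 FPKM in MEC and 455, 830 and 562 in the lines (0.37, adjusted p = 0.35). Line 199 lay within the MEC range and lines 233 and 336 lay above it. *Rps27l* mRNA was 50.04%, 49.0% and 44.6% of *Rps27* mRNA in MEC and 55.1%, 101% and 89.9% in lines 199, 233 and 336. The pair was 76.2% identical over the coding sequence.

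Of 7 genes of the p53 pathway in which *Rpl5* and *Rpl11* act, 1 was called, where 9.9% of all tested genes were. *Cdkn2a*, whose p19ARF product binds MDM2, was 2.23, 1.39 and 7.54 FPKM in MEC and 159, 87.8 and 246 in lines 199, 233 and 336 and was called higher (5.24, limma adjusted p = 0.00452). *Mdm2*, the ligase that RPL5 and RPL11 bind, was 51.9, 58.0 and 61.6 in MEC and 55.1, 276 and 157 in the lines (1.22, adjusted p = 0.207). In *Mdm2* line 199 lay within the MEC range.

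The other members with the largest increases were not called. *Rpl21* was 558, 532 and 461 FPKM in MEC and 807, 769 and 682 in lines 199, 233 and 336 (0.54, limma adjusted p = 0.0625), with every line above every preparation. *Rps21* was 1335, 1306 and 1252 in MEC and 1951, 1560 and 1720 in the lines (0.42, adjusted p = 0.113), and *Rps12*, whose protein takes part in cell competition, was 2027, 1823 and 1515 in MEC and 2329, 2476 and 2257 in the lines (0.41, adjusted p = 0.155). Neither gene overlapped between the groups.

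Members with the largest decreases, beside *Rpl22*, *Rpl11* and *Rps27*, were *Rpl26*, *Rpl39* and *Rps3*. *Rpl26*, which encodes a large-subunit protein that also binds *Trp53* mRNA, was 1212, 1136 and 1012 FPKM in MEC and 589, 1149 and 820 in lines 199, 233 and 336 (−0.44, limma adjusted p = 0.305). Line 199 was lowest, line 336 was also below MEC, and line 233 was within the MEC range. *Rpl39*, at the wall of the exit tunnel, was 1119, 999 and 935 in MEC and 893, 880 and 806 in the lines (−0.24, adjusted p = 0.293). *Rps3*, at the mRNA entry channel, was 954, 821 and 776 in MEC and 721, 759 and 724 in the lines (−0.21, adjusted p = 0.364). Both were lower in all lines than in any preparation, by less than 0.35 on the log2 scale in each line.

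The most abundant members were *Rpl41*, *Rplp0*, *Rps12*, *Rplp1* and *Rps14*. *Rpl41*, which encodes the shortest ribosomal protein, was 3305, 2892 and 2377 FPKM in MEC and 2837, 3218 and 3770 in lines 199, 233 and 336 (0.20, limma adjusted p = 0.519). *Rps14*, on the platform of the small subunit, was 1587, 1461 and 1475 in MEC and 1646, 1878 and 1915 in the lines (0.26, adjusted p = 0.247), and its groups did not overlap. These levels compare between genes per length of transcript. Lengths were those of the longest transcript in the best-ranked annotation class of each gene, which need not be the one expressed. By this measure the members were short, with a median of 882 bases and a range from 345 to 5179. Other tested protein-coding genes had a median of 3024 bases, and their median fold change lay between −0.03 and 0.03 in each of 5 length classes.

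Unlike *Rpl11* and *Rplp0*, the following members known for a role of their own had small mean differences and values that overlapped between the groups. *Rps6*, the substrate of S6 kinase, was 1003, 902 and 816 FPKM in MEC and 777, 1024 and 788 in lines 199, 233 and 336 (−0.08, limma adjusted p = 0.788), with a confidence interval from −0.48 to 0.33. *Rps19*, the gene most often mutated in Diamond-Blackfan anemia, was 760, 739 and 640 in MEC and 611, 791 and 708 in the lines (−0.02, adjusted p = 0.938). *Rpl13a*, part of the GAIT complex, was 877, 765 and 690 in MEC and 690, 852 and 719 in the lines (−0.04, adjusted p = 0.88), and its entry joins it with *Flt3l*. In *Rps6* lines 199 and 336 were below the MEC range and line 233 above it, and in the other two genes at least 1 line lay within it.

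*Rpsa*, known also as the laminin receptor, was 743, 668 and 503 FPKM in MEC and 524, 794 and 678 in lines 199, 233 and 336 (0.06, limma adjusted p = 0.887). *Rps27a*, made as a fusion with ubiquitin, was 870, 770 and 760 in MEC and 575, 868 and 964 in the lines (−0.03, adjusted p = 0.951). Line 199 was the lowest of all libraries in *Rps27a* and line 336 the highest, so a mean near 0 stood for opposite differences. *Rpl38*, known for its part in the translation of *Hox* mRNAs, was 1644, 1557 and 1310 in MEC and 1636, 1471 and 1213 in the lines (−0.07, adjusted p = 0.828).

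Single lines went their own way in a few other members. Line 199 was high in *Rps2*, at 2035 FPKM, against 1390, 1325 and 855 in MEC and 1094 and 1316 in lines 233 and 336. It was also high in *Rpl12*, at 1472, against 1080, 943 and 789 in MEC and 885 and 911 in the other lines. *Rpl14* was 613, 576 and 448 in MEC and 414, 729 and 529 in lines 199, 233 and 336, so that line 199 was below the MEC range and line 233 above it. These 3 genes were named after their values were seen, and each line is 1 library, so no test was made.

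The tissue-restricted paralogs stayed at or near 0. *Rpl10l*, the testis form of *Rpl10*, was listed at 0 in every library. *Rpl3l*, the muscle form of *Rpl3*, was listed at 0 in MEC and in line 233 and was under 0.05 FPKM in lines 199 and 336. *Rpl39l* was 0.698 and 0.688 FPKM in MEC 1 and MEC 2 and listed at 0 in MEC 3 and in all lines. Of the ubiquitous forms, *Rpl3* differed by 0.01 (limma adjusted p = 0.968), with a confidence interval from −0.33 to 0.35, and *Rpl10* by −0.01 (adjusted p = 0.979), with an interval from −0.38 to 0.36. *Rps4x* differed by 0.11 (adjusted p = 0.62).

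Of the 7 tested ribosomal protein genes whose symbols the rule does not take in, none was called, where 9.9% of all tested genes were. A list this short holds few called genes at that share. *Fau*, which encodes RPS30 as a fusion with a ubiquitin-like protein, differed by 0.24 (limma adjusted p = 0.333). The paralogs *Rpl36al* and *Rpl7l1* differed by −0.14 (adjusted p = 0.704) and 0.26 (adjusted p = 0.416). *Rpl36al* mRNA was between 46.0% and 52.2% of *Rpl36a* in MEC and between 36.2% and 51.7% in the lines, which overlap. *Gnb2l1*, the older symbol of the ribosomal scaffold *Rack1*, differed by −0.03 (adjusted p = 0.929). *Fau* and *Gnb2l1* were named after their values were seen.

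The counts of the next lists stand beside 9.9% of all tested genes called in either direction and a median fold change of 0.01. Short lists hold few called genes at that share. None of 14 translation factors with TOP mRNAs was called, and their median fold change was 0.18. *Tpt1*, the largest difference of the list, was at −0.66 (limma adjusted p = 0.27) and *Pabpc1* at 0.43 (adjusted p = 0.191). None of 23 initiation factors was called (median 0.16), with *Eif3b* the furthest at 0.84 (adjusted p = 0.0583) and *Eif4g1* next at 0.51 (adjusted p = 0.109). None of 18 regulators of mTORC1 or of TOP mRNAs was called (median 0.14), and the largest differences were those of *Rps6kb2*, which encodes an S6 kinase, at 0.63 (adjusted p = 0.0656) and *Ybx1*, an mRNA-binding protein, at 0.62 (adjusted p = 0.14). Both were higher in all lines than in any preparation. Of 8 tested snoRNA host genes none was called (median 0.26), with *Ncl* at 0.86 (adjusted p = 0.064) and *Nop56* at 0.81 (adjusted p = 0.109).

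A list of 18 tested genes held chaperones and importers of ribosomal proteins together with factors of pre-60S assembly. Of these, *Rpf2* and *Rrs1* were called higher and none lower, and both are assembly factors rather than chaperones or importers. For all tested genes, 2.64% were called higher. All lines were above all preparations in 9 of the 18, against 18.5% of all tested genes. Their median fold change was 0.33, against 0.08 for the members and 0.01 for all tested genes. Of 11 genes of ribosome rescue and quality control, *Abce1*, which splits the subunits after termination, was called higher, and *Ltn1* was next at 0.52 (adjusted p = 0.0649). *Abce1* was 68.0, 67.5 and 54.2 FPKM in MEC and 134, 100.3 and 102 in lines 199, 233 and 336 (0.81, adjusted p = 0.0386). Its fold change was 0.68, short of the threshold, without line 199 (adjusted p = 0.0385), and its adjusted p was between 0.063 and 0.125 without any of the other 5 libraries.

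*Rpl22* and *Rpl11* lie in separate regions of chromosome 4, and the genes around them were lower too. *Rpl22* is at 152325742 to 152334071 on the plus strand and *Rpl11* at 136028265 to 136053428 on the minus strand (GRCm38). The 26 other tested genes within 2 Mb of *Rpl22* had a median log2 difference from the MEC mean of −0.73, −0.70 and −0.76 in lines 199, 233 and 336, and 23, 25 and 24 of them were below that mean. The 51 around *Rpl11* had medians of −0.76, −0.92 and −0.63, with 41, 44 and 37 below. In the same lines *Rpl22* itself was at −0.56, −1.22 and −0.90 and *Rpl11* at −0.59, −0.81 and −0.81. The part of the region in their lower level was not tested.

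*Rps6* and *Rps20* lie elsewhere on chromosome 4. *Rps6* differed from the MEC mean by −0.22, 0.18 and −0.20 in lines 199, 233 and 336, and its 10 neighbors had medians of −0.13, 0.12 and −0.10. *Rps20* had a log2 fold change of 0.20 (limma adjusted p = 0.343), and its neighbors were not examined. Over all of chromosome 4, 687 tested genes that are not members had medians of −0.33, −0.37 and −0.25 in the 3 lines. On chromosome 5 the median of 687 such genes was 0.26, 0.37 and 0.25, and the 48 neighbors of *Rplp0* had medians of 0.19, 0.46 and 0.38, below the difference of *Rplp0* itself in each line. *Rpl21* on the same chromosome was at 0.65, 0.58 and 0.40 in the lines, beside 25 neighbors at 0.46, 0.29 and 0.32. The neighbors of *Rpl26* on chromosome 11 had a median of −0.41 over 74 genes in line 199 and of −0.02 and 0.04 in lines 233 and 336. Line 199 was the line in which *Rpl26* was lowest. *Rps27l* was at −0.02, 0.84 and 0.28, beside 27 neighbors at −0.03, −0.15 and −0.46. *Rps2* was at 0.81, −0.09 and 0.18, beside 76 neighbors at 0.24, 0.03 and 0.26. These regions were examined after the values of the members were seen.

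**Figure D5:**
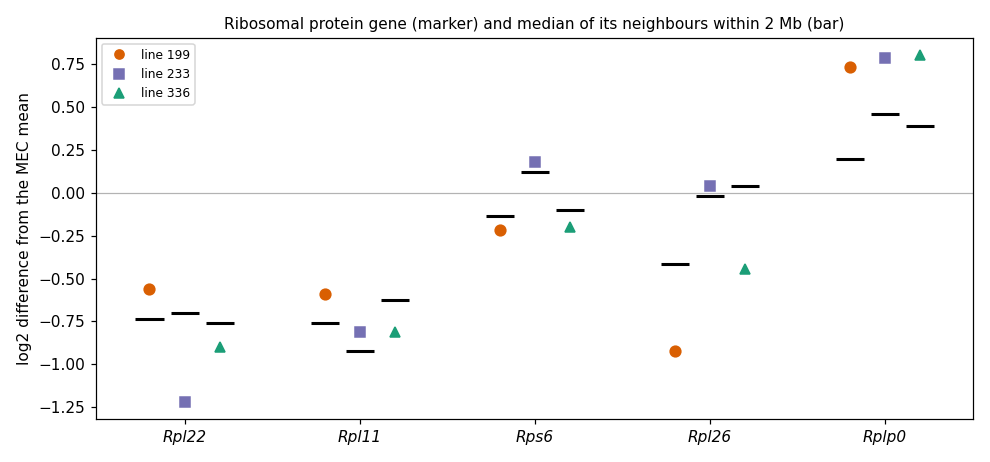
Log2 difference from the MEC mean of 5 ribosomal protein genes in each line (symbols) and the median of the other tested genes within 2 Mb (black bars). Around *Rpl22* and *Rpl11* the bars lie between −0.92 and −0.63 in all 3 lines, around *Rps6* they lie near 0, and *Rplp0* is above its bars.

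Ribosomal protein genes have many processed pseudogenes, and a count can be split between near-identical copies. Of 76 tested members, 72 had at least 1 other gene with at least 95% identity over at least 90% of the coding sequence, and 60 had such a copy at a mean of at least 1 FPKM in the table. The median member had 5 such copies, and *Rpl21* had the most, at 56. The copies summed to more than 10% of the member's own level in 30 members, and in *Rpl24* to 152% of it, so the level of *Rpl24* is uncertain. For the members the results turn on, the copies came to 2.44% of *Rplp0*, 0.0123% of *Rpl22* and 13.4% of *Rpl11*, and *Rps27l* and *Rps3* had none. The 220 entries named as ribosomal protein pseudogenes summed to between 3.19% and 3.52% of the members' FPKM in each library.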

How the data were processed

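RNA was measured by paired-end sequencing with reads of 150 bases in 3 MEC and 3 MEKO libraries, grouped by the genotype in the labels. The authors trimmed the reads with Trimmomatic, aligned them to mm10 (GRCm38) with Bowtie2 and TopHat2 2.0.14 and computed FPKM with Cufflinks 2.2.1, versions credited to the submitters' processing notes. The deposited values are FPKM, scaled by the authors for transcript length and mapped fragments. They hold no read counts, so the depth is unknown, no interval or detection floor was given for single values, and count models were not used. Of 37755 entries, 2 held no values.

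The members and gene lists were chosen with earlier results of these data known, by general knowledge and the name rule. Named genes were the 6 largest increases and 6 largest decreases, called members, the 5 most abundant, paralog pairs and members with a known role of their own, with up to 4 called genes and the 2 largest changes of each other list. Names outside this rule are marked where they occur, apart from *Rps20* and *Rpl24*, which also fall outside it. The cell type markers and *mt-Ts1* are named outside it as well. A few genes that the rule would name are not reported here by name and are kept in the counts. MEKO was tested against MEC in R 4.3.3 with limma 3.58.1 on log2(FPKM + 1) with a mean-variance trend, over the 12461 entries with a mean of at least 1 FPKM, adjusted by Benjamini-Hochberg. A call needed an adjusted p under 0.05 and a log2 fold change beyond 0.75, on this scale. Shares and sums were tested by exact permutation (two-sided, scipy 1.17.1). The limma step was tested on simulated data. The limma p-values set the difference between the groups against the spread within them, which was estimated with the help of all tested genes. That spread is between 3 preparations of 3 to 5 animals each and between 3 lines of 1 tumor each. No batch or date is labelled, and one aligned with the groups could not be separated from them. Gene positions came from GENCODE M21, start sites from RefSeq, and near-identical copies from blastn 2.17.0. Alternatives were other pseudocounts, filters, scalings, weights and shares, and each library left out.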

Additional observations from a re-analysis of the deposited data

How the results depend on the processing

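The counts of called ribosomal protein genes are small and moved with the processing. The 1 member called higher became 0 with no filter on low values, with sample weights, with libraries scaled to the median member and with upper-quartile scaling, and was between 0 and 1 with each library left out. The 1 called lower became 0 with no filter and with quantile normalization, and 2 with sample weights, scaling to the median member, upper-quartile scaling or the adjusted p alone, and was between 0 and 2 with each library left out. *Rplp0* kept its direction in all 15 alternatives, with fold changes between 0.67 and 0.84 and adjusted p between 0.0127 and 0.230, and passed both thresholds in 6. *Rpl22* was between −1.06 and −0.73 with adjusted p between 0.00583 and 0.147, and passed in 8. *Rpl11* was between −0.91 and −0.62, and passed both in 5 and the adjusted p in 10. No result changed direction past a threshold. Over all tested genes, 329 were called higher and 905 lower. With sample weights these were 600 and 1378, with a filter at a mean FPKM of 5 the lower calls were 501, and with each library left out they were between 49 and 546 higher and between 251 and 1340 lower. Calls on the other lists were 4 higher and 0 lower, and between 1 and 5 higher and between 0 and 1 lower with each library left out.

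The difference in share was 0.887 percentage points without the 10 largest members (exact permutation p = 0.2) and between 1.10 and 2.06 with each library left out. With upper-quartile scaling, 16 members (21.1%) were above the MEC range in line 199 and 14 (18.4%) in line 336, against 36.9% and 34.6% of all tested genes. Scaled to the median member, 36 (47.4%) were below it in line 199 and 25 (32.9%) in line 233, against 41.3% and 42.3% of all. With a MEC library left out, the members above were between 31 and 40 in line 199, between 37 and 58 in line 233 and between 26 and 38 in line 336, and those below were between 19 and 35, between 8 and 18 and between 15 and 38. Quantile normalization moved the median of all genes from 0.01 to 0.10 and that of the members from 0.08 to 0.15, while without MEC 3 the members' median was −0.00, with sample weights −0.04 and without MEC 1 0.15. No paired analysis was possible because the groups share no replicate number. The depth is not known from FPKM, and 3 libraries a group limit every count above. The cause of these shifts was not tested.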
